A study of Mus musculus with 2 samples.

Results

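The genes for cytosolic translation initiation and elongation factors were read in total RNA from mouse forebrain at embryonic day 13.5. They were taken as every protein-coding gene on an autosome or the X chromosome whose GENCODE symbol starts with Eif or Eef, a rule that uses no measured value. It finds 68 genes, of which 67 have a row in the deposited tables, out of 21278 protein-coding genes with a row. Eef1akmt4 is the gene without one. The single group held 2 libraries of healthy B6NCrl embryos aged 13.5 days, male and female pooled, with no allele or agent named in the labels. Per the labels these are biological replicates with a tissue sample each, but 1 donor code is given for both, so the spread between them may be partly technical. Errors are SDs of 2 libraries (n = 2), and with 1 group no condition was compared and no p-value is given.

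Initiation factors bring the small ribosomal subunit, the initiator tRNA and the capped mRNA together, scan for the start codon and join the large subunit. Elongation factors then deliver each aminoacyl-tRNA and move the ribosome along by a codon at a time. Cells adjust the rate mainly at the cap, where repressors compete for eIF4E, and at eIF2, whose phosphorylation by stress kinases limits initiator tRNA. In the brain the paralog pair Eef1a1 and Eef1a2 is known for an exchange after birth, when mature neurons take up Eef1a2 in place of Eef1a1.

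Both paralogs of that pair encode eEF1A, and their sequences are shown here because it bears on whether their reads can be told apart. The first 90 coding bases are given 5′ to 3′ on the coding strand from GENCODE M21 transcripts on GRCm38, with the 15 bases that differ in capitals. The Eef1a1 stretch lies at chr9:78480565-78480654 and the Eef1a2 stretch at chr2:181155317-181155406, both on the minus strand and both in coding exon sequence.
Eef1a1: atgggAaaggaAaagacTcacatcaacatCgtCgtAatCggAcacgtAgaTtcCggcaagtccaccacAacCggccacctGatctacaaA
Eef1a2: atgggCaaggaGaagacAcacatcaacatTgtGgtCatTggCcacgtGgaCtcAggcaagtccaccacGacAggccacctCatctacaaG
Over 1384 aligned coding bases the genes were 80.6% identical, the longest identical run was 23 bases, and they shared no stretch of 100 bases. The second pair with a wide gap in level encodes eIF5A, and its first 90 coding bases differ at 25 positions, again in capitals. Eif5a is shown from chr11:69919226-69919315 on the minus strand and Eif5a2 from chr3:28782052-28782141 on the plus strand.
Eif5a: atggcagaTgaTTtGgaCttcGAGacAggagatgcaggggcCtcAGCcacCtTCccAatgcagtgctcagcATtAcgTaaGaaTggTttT
Eif5a2: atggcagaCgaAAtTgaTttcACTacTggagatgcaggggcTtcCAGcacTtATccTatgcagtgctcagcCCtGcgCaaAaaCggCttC
Their coding sequences were 73.2% identical over 459 aligned bases, with a longest identical run of 14 bases.

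The libraries held 35378462 estimated counts (replicate 1) and 36793284 (replicate 2), and translation factors took 1.59% of the counts in each. All 7 forebrain markers reached 1 TPM (transcript abundance per length and library) in both libraries, and none of 6 hindbrain and spinal cord markers did. All 6 markers of neurons and all 6 of dividing progenitors were above 1 TPM as well, so levels are averages over mixed cells, in which fewer cells of a type and less RNA per cell cannot be told apart. Erythroid markers were also present, 6 of 6 at 1 TPM or more, with summed levels of 11852 and 11141 TPM in replicates 1 and 2. Of 6 skeletal muscle markers 2 reached 1 TPM, their sum was 10.7 and 7.65 TPM, and Myog was at 0.

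Translation factors were abundant as a group. Their median level was 85.9 TPM in replicate 1 and 80.6 in replicate 2 (83.5 ± 3.69 TPM over gene means), beside medians of 4.27 and 3.85 TPM over all protein-coding genes. Of the 67 genes, 65 reached 1 TPM in both libraries, where 59.4% of all protein-coding genes did. At 100 TPM the count was 28 of 67 (41.8%), against 7.43% of all protein-coding genes. Eef1a1 alone held 23.8% ± 0.166 of the summed TPM of translation factors. Together with Eif1, Eif5a and Eif4g2 it held 47.7% ± 0.112.

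**Figure D1:**
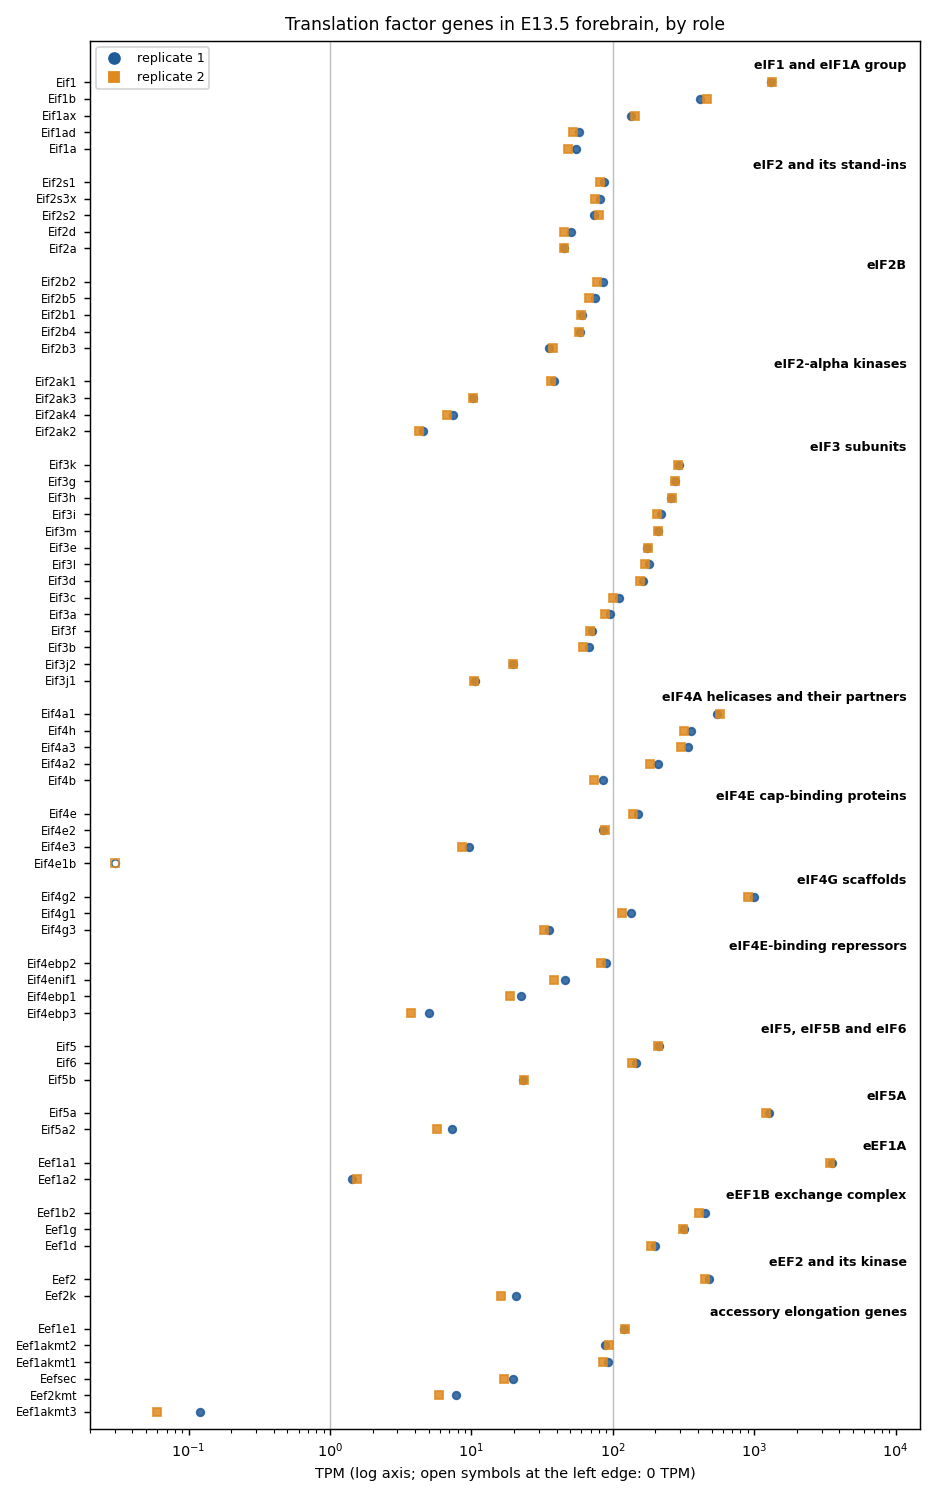
Level of each of the 67 translation factor genes, as TPM on a log axis, grouped by role; circles are replicate 1, squares replicate 2, and grey lines mark 1 and 100 TPM. Symbols of most genes nearly coincide, those of Eef1akmt3 (0.12 and 0.06 TPM) do not, Eef1a1 stands highest at 3500.4 TPM, and Eif4e1b, drawn open at the left edge, is at 0.

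Elongation factors stood above initiation factors by median. The 6 genes of eEF1A, the eEF1B exchange complex and eEF2 had medians of 386 TPM in replicate 1 and 360.3 in replicate 2, and the 44 initiation genes had 90.9 and 88.3 TPM. The initiation genes were those of eIF1 to eIF6 with eIF2B, without the eIF2-alpha kinases and the eIF4E-binding repressors. Eif1ad, Eif4a3 and Eif4e2 were kept among them. The genes of eIF5A, Eef2k and the genes accessory to elongation were in neither list. The difference of median log2(TPM + 1) was 2.05 in replicate 1 and 2.00 in replicate 2 (2.03 ± 0.04). It was 1.15 with means in place of medians and 1.72 with protein-coding transcripts alone, an alternative chosen after seeing the data. The elongation list holds Eef1a2, its lowest gene, at 1.5 TPM, and the initiation list holds Eif4e1b at 0.

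Eef1a1, the GTPase that brings aminoacyl-tRNA to the ribosome (chr9:78478449-78489151, minus strand), was the highest translation factor and ranked 11 among all protein-coding genes. It measured 3541 TPM in replicate 1 and 3459.9 in replicate 2, from 110406 and 120485 estimated counts. Eef1a2 (chr2:181147653-181157014, minus strand), its paralog of adult neurons and muscle, measured 1.43 and 1.56 TPM from 63 and 75 counts. Eef1a1 was therefore 2476 times as high as Eef1a2 in replicate 1 and 2218 times in replicate 2, a log2 ratio of TPM + 1 of 10.46 ± 0.08. Every library placed the pair the same way, with no overlap.

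Reads of Eef1a1 could have been shared with copies of it elsewhere in the genome. The amounts counted there were small, but they are estimates that divide shared reads, so they cannot give how many were shared. Over its transcripts 11.7% of 100-base windows recur in 4 other genes, 3 of them processed pseudogenes whose summed level was 10.7 TPM in replicate 1 and 8.76 in replicate 2. That is 0.301% and 0.253% of the Eef1a1 level. Only transcripts with a row in the deposited tables were searched. Among them, no window of Eef1a2 recurred in any other gene. Of all 67 genes, 35 shared no window with another gene and 10 shared at least 10% of theirs. The muscle and neuron markers given above were measured in the same libraries, and their part in the Eef1a2 level was not tested.

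The eEF1B complex recharges eEF1A with GTP, and its 3 genes spanned a 2.23-fold range. Eef1b2, a catalytic subunit, had 449.6 TPM in replicate 1 and 407 in replicate 2. Eef1g, the structural subunit, had 322 and 314 TPM. Eef1d, the other catalytic subunit, was the lowest with 198 and 187 TPM. Eef1a1 stood 11.02 ± 0.0143 times as high as Eef1g.

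Eef2, the GTPase that translocates the ribosome, measured 478 TPM in replicate 1 and 447 in replicate 2, so that Eef1a1 stood 7.57 ± 0.234 times as high. Eef2k, the kinase that inactivates eEF2, had 20.6 TPM in replicate 1 and 16.3 in replicate 2. The level of Eef2 over that of its kinase was 25.4 ± 3.02. In TPM, Eef2k was 1 of 4 translation factors that differed by at least 1.2-fold between the libraries, and it did not reach that fold with counts scaled by TMM (log2 ratio 0.16).

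Genes accessory to elongation ranged from 120.4 TPM to near 0. Eef1e1, a scaffold of the multi-tRNA synthetase complex, had 119 TPM in replicate 1 and 122 in replicate 2. Eef1akmt2, a lysine methyltransferase of eEF1A, had 88.7 and 94.4 TPM. Eef1akmt1, another such enzyme, had 91.9 and 85.2 TPM. These enzymes of eEF1A were thus at similar levels, while another of the family was barely seen. Eef1akmt3 had 7 estimated counts in replicate 1 and 4 in replicate 2, or 0.12 and 0.06 TPM. Eefsec, the factor that delivers selenocysteine tRNA, had 19.7 and 17 TPM. Eef2kmt, a methyltransferase of eEF2, had 7.74 and 5.89 TPM, and 15.3% of its 100-base windows recur in other genes, mostly in its opposite-strand neighbour Alg1.

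eIF5A, named as an initiation factor, is known to help ribosomes through difficult stretches during elongation and carries the modified amino acid hypusine. Eif5a was the third highest translation factor, with 1271 TPM in replicate 1 and 1205 in replicate 2. Eif5a2 had 7.24 and 5.69 TPM. Eif5a was 176 times as high as Eif5a2 in replicate 1 and 212 times in replicate 2, the second widest of the 8 paralog pairs. In estimated counts, which are not divided by length, the ratio was 41.5 and 50.3, since the Eif5a2 transcript averages 5027 bases and those of Eif5a 1267 bases.

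**Figure D2:**
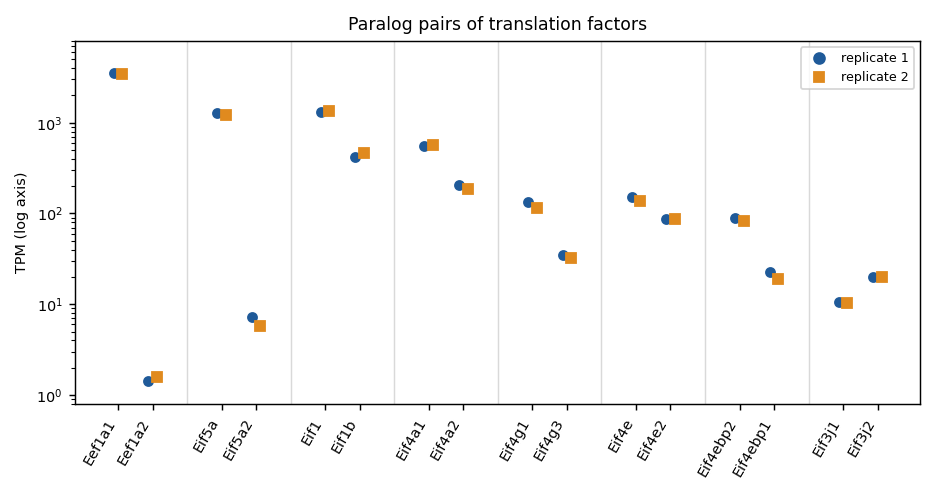
TPM on a log axis for both genes of 8 paralog pairs; circles are replicate 1 and squares replicate 2. Eef1a1 and Eef1a2 lie furthest apart (3500.4 and 1.5 TPM), while Eif4e and Eif4e2 lie closest in gene-level TPM (144 and 86.8 TPM).

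The group of eIF1 and eIF1A opens the ribosome for scanning and guards the choice of start codon. Eif1 led it with 1309 TPM in replicate 1 and 1344 in replicate 2. Eif1b, its close paralog, had 415 and 467 TPM, giving a ratio of 3.02 ± 0.198 for Eif1 over Eif1b. That ratio depended on which transcripts were counted. The leading transcript of Eif1, with 43.6% ± 0.541 of its TPM, is classed as a processed transcript with no coding sequence. With protein-coding transcripts alone, an alternative chosen after seeing the data, Eif1 over Eif1b was 1.35 in replicate 1 and 1.16 in replicate 2.

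The X-linked gene Eif1ax had 134 TPM in replicate 1 and 144 in replicate 2. Eif1a, its autosomal paralog, had 54.9 and 48 TPM. Eif1ad, named for an eIF1A domain, had 57.7 and 52.3 TPM, and it overlaps the gene Banf1 on the opposite strand by 428 bases. Banf1 itself was at 447 and 449 TPM. The sources used here do not say whether strand was used in counting, so reads of such neighbours cannot be told apart with certainty. Of the 67 genes, 22 overlap a gene on the opposite strand, and for 13 that neighbour reached 1 TPM in a library. These overlaps are of whole gene spans, introns included, and need not lie in transcript sequence. Among the transcripts searched for windows, Eif1ad shared 329 windows with Banf1, while Eif4enif1 shared none with its neighbour Drg1.

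eIF2 carries the initiator tRNA, and its 3 subunit genes on autosomes and the X spanned 1.17-fold in replicate 1 and 1.09-fold in replicate 2. Eif2s1, the alpha subunit that stress kinases phosphorylate, had 86.3 TPM in replicate 1 and 80.6 in replicate 2. Eif2s3x, the X-linked gamma subunit that binds GTP, had 81.6 and 74.3 TPM, and 33.7% of its windows recur in a processed pseudogene counted at 1.3 and 1.48 TPM. Eif2s2, the beta subunit, had 74 and 79.4 TPM. The order of the 3 was not stable, since Eif2s2 was the lowest in replicate 1 and Eif2s3x in replicate 2. The Y-linked copy of the gamma subunit, Eif2s3y, lies outside the rule. It had 33.9 and 46.8 TPM, and with it the summed gamma level was 115 and 121 TPM, which widened the range of the subunits to 1.56-fold in replicate 1 and 1.53-fold in replicate 2. Both sexes were pooled, and the sources used here do not give the share of males in each pool.

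Both Eif2d and Eif2a can stand in for eIF2 on some mRNAs or at recycling ribosomes. Eif2d had 51.1 TPM in replicate 1 and 45.2 in replicate 2. Eif2a, a single protein that is distinct from the eIF2 complex, had 45 and 45.1 TPM. Protein-coding transcripts held 45% of the Eif2a TPM in replicate 1 and 44.4% in replicate 2. Transcripts classed for nonsense-mediated decay held 42.3% and 43.9%.

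eIF2B recharges eIF2 with GTP, and in humans mutations in its genes cause a leukodystrophy. Among its 5 subunits Eif2b2 (beta, regulatory) was the highest with 85.3 TPM in replicate 1 and 77.3 in replicate 2. Eif2b5 (epsilon, catalytic) had 74.5 and 67.5 TPM. Eif2b1 (alpha, regulatory) had 60.3 and 60 TPM. These were followed closely by the delta subunit and, at a distance, by the gamma subunit. Eif2b4 (delta, regulatory) had 58.4 and 57.4 TPM. Eif2b3 (gamma, catalytic) had 35.7 and 37.5 TPM, and was the lowest in each library. The range over the complex was 2.22-fold, and Eif2s1 was 1.18 ± 0.0261 times the level of Eif2b5.

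The 4 kinases of eIF2-alpha were low, with a median of 8.67 ± 0.262 TPM. Eif2ak1 (HRI, the haem-regulated kinase known from red cell precursors) led with 38.2 TPM in replicate 1 and 36.7 in replicate 2. Eif2ak3 (PERK, the sensor of unfolded protein in the endoplasmic reticulum) had 10.3 and 10.3 TPM. Eif2ak4 (GCN2, the sensor of uncharged tRNA) had 7.39 and 6.67 TPM. Eif2ak2 (PKR, the sensor of double-stranded RNA) was the lowest with 4.55 and 4.23 TPM. The order was the same in both libraries. Erythroid markers were high in the same RNA, as given above, and their part in the level of Eif2ak1 was not tested. Eif2ak1 also overlaps the opposite-strand gene Aimp2 (80.9 and 75.4 TPM), which holds 389 of its 5568 windows of 100 bases.

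eIF3 is the large scaffold that binds the small ribosomal subunit. Its 12 subunit genes other than the Eif3j pair had mean levels between 65 and 291 TPM, and 9 of them reached 100 TPM in both libraries. Eif3k, a subunit absent from budding yeast, led with 292 TPM in replicate 1 and 289 in replicate 2. Eif3g, of the core that yeast shares, had 274 and 273 TPM. Eif3h, also absent from budding yeast, had 258 and 263 TPM. Highest levels were thus not confined to the shared core, whose subunit Eif3i came next with 219 and 206 TPM. Eif3m, Eif3e, Eif3l, Eif3d, Eif3c, Eif3a and Eif3f came next, from 209 down to 70 TPM by mean, and Eif3b was the lowest of the 12 with 68.4 and 61.7 TPM.

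Although the proteins are found together in 1 complex, the genes were not level in TPM, and longer ones were lower. Over the 12 genes TPM spanned 4.47-fold and estimated counts 2.85-fold. Spearman's rho between length and mean TPM was -0.94 over these 12 genes, as a description, beside -0.41 over 65 translation factors and -0.25 over 14549 protein-coding genes with a mean count of at least 10. All points share the 2 libraries, and TPM is itself a count divided by length. Eif3k, the shortest, averages 773 bases, and Eif3a, the longest, 5176 bases with 92.1 ± 4.68 TPM. The part of length in the method of measurement was not tested.

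**Figure D3:**
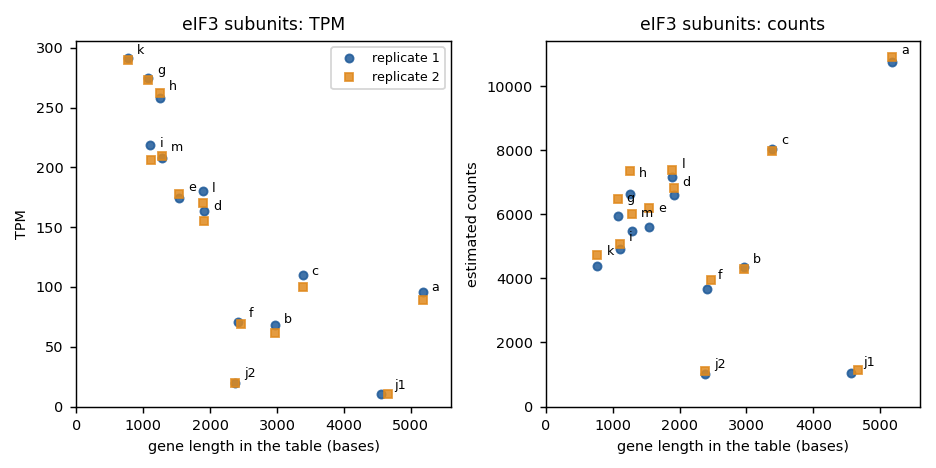
TPM (left) and estimated counts (right) of the 14 eIF3 subunit genes against gene length in bases; letters name the subunit, circles are replicate 1 and squares replicate 2. In TPM the short genes k, g and h stand highest (291, 274 and 260.4 TPM by mean), while in counts the longest, a, stands highest (10767 in replicate 1 and 10925 in replicate 2).

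The loosely bound subunit eIF3j has 2 genes in mouse. Eif3j1 had 10.6 TPM in replicate 1 and 10.4 in replicate 2, and Eif3j2 had 19.8 and 19.8 TPM. Their aligned coding sequences are identical over 783 bases, and 84% of the 100-base windows of Eif3j2 recur in other genes, nearly all in Eif3j1. The division between them, 0.53 in replicate 1 and 0.52 in replicate 2 for Eif3j1 over Eif3j2 in TPM, is therefore uncertain. In estimated counts, which are not divided by length, the ratio was 1.05 in each library, so the direction turned. Their sum was 30.3 and 30.2 TPM, below each of the other 12 subunits.

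The eIF4A helicases unwind the leader of the mRNA. Eif4a1 had 549 TPM in replicate 1 and 575 in replicate 2. Eif4a2, the paralog known as the more brain-enriched form in adults, had 208 and 184 TPM. Eif4a1 over Eif4a2 was 2.64 in replicate 1 and 3.11 in replicate 2. With protein-coding transcripts alone the ratio was 4.97 and 5.87, since 50.3% of Eif4a2 TPM came from such transcripts and 94.7% of Eif4a1 TPM. A processed pseudogene, Eif4a-ps4, was counted at 14.5 TPM in replicate 1 and 7.39 in replicate 2 and shares 1019 windows with Eif4a1.

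Eif4a3, the helicase of the exon junction complex, had 338 TPM in replicate 1 and 304 in replicate 2. Eif4h, a helper of eIF4A, had 357 and 319 TPM. Eif4b, the other helper, had 85.2 and 73.4 TPM. Eif4h thus stood above Eif4b in both libraries, with no overlap.

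The cap-binding gene Eif4e had 151 TPM in replicate 1 and 138 in replicate 2. Eif4e2 (4EHP), which binds the cap without recruiting eIF4G and acts as a repressor, had 85.9 and 87.8 TPM. Eif4e over Eif4e2 was 1.66 ± 0.129, the closest pair in gene-level TPM. With protein-coding transcripts alone Eif1 and Eif1b were closer, as were Eif3j1 and Eif3j2 in counts. Eif4e3, another family member, had 9.64 and 8.61 TPM. Eif4e1b, known from oocytes, was at a count of 0 in both, a result that 3 counts would bound at 0.154 TPM (replicate 1) and 0.142 TPM (replicate 2). This floor covers counting error only.

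Of the eIF4G scaffolds the highest was the one that cannot bind eIF4E. Eif4g2 (DAP5), which lacks the eIF4E site, had 996 TPM in replicate 1 and 901 in replicate 2. Eif4g1, the main scaffold of the cap complex, had 135 and 116 TPM. Eif4g3 had 35.1 and 32.6 TPM. Eif4g2 over Eif4g1 was 7.57 ± 0.256, and Eif4g1 over Eif4g3 was 3.7 ± 0.19. Within the cap complex, Eif4e was 1.15 ± 0.0495 times the level of Eif4g1 in TPM, and Eif4a1 was 4.51 ± 0.614 times it. In estimated counts, which are not divided by length, Eif4e over Eif4g1 was 0.75 in replicate 1 and 0.79 in replicate 2, so the direction turned. Eif4a1 over Eif4g1 was 1.61 and 1.93 in counts. Protein-coding transcripts of Eif4g1 alone held 95.1 and 78.4 TPM.

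Repressors that hold eIF4E were led by Eif4ebp2, the form known as the main one in adult brain, with 89 TPM in replicate 1 and 82.8 in replicate 2. Eif4ebp1 had 22.4 and 18.9 TPM. Eif4ebp2 over Eif4ebp1 was 3.97 in replicate 1 and 4.39 in replicate 2. Eif4ebp3 had 5.03 and 3.74 TPM from 72.1 and 58.4 counts, and 62.8% of its windows recur in an overlapping protein-coding gene of GENCODE M21. That gene has no gene-level row under its M21 identifier, but the transcript holding the windows was among those quantified. Eif4enif1 (4E-T), which shuttles eIF4E into the nucleus, had 45.6 and 38.5 TPM. Its gene span, introns included, overlaps that of the opposite-strand gene Drg1 (253 and 240.4 TPM) over 42197 bases. None of the 7005 windows of Eif4enif1 recurred in another gene among the transcripts searched. Eif4e was 1.68 ± 0.0173 times the level of Eif4ebp2.

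Factors of subunit joining spanned 9.03-fold. Eif5, which triggers GTP hydrolysis on eIF2, had 212 TPM in replicate 1 and 210.5 in replicate 2. Eif6, which keeps the large subunit from joining too early, had 145 and 137 TPM. Eif5b, the GTPase of joining, had 23.2 and 23.6 TPM, with a mean length of 6965 bases. The opposite-strand gene Rev1 (35.7 and 32.9 TPM) holds 1158 of the 9894 windows of Eif5b. Retained-intron transcripts held 33.4% of the Eif5b TPM in replicate 1 and 42.2% in replicate 2.

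How far translation factors were carried by 1 transcript was close to the background of all protein-coding genes. Of 66 genes above 0 TPM, 36 (54.5%) had a leading transcript with at least 90% of the gene's TPM, beside 46.9% of 16107 protein-coding genes. For 26 of the 36 this holds by construction, since they have just 1 transcript in the table. Among genes with several transcripts the count was 10 of 40 (25%), beside 24.6%. By mean share over the libraries, the leading transcript was under 50% in 11 genes (16.7%), beside 16.7%. In 1 of them, Eef2k, it held 45.7% in replicate 1 and 50.9% in replicate 2. The leading transcript was protein-coding in 63 of the 66 (95.5%), beside 91.8%. Besides Eif1, the exceptions were Eif1ax, whose retained-intron transcript held 51.6% ± 3.38, and Eif2ak2, whose retained-intron transcript held 44.8% in replicate 1 and 61.9% in replicate 2. In both genes the libraries disagreed, since in replicate 1 coding transcripts held more (50.8% for Eif1ax and 47.7% for Eif2ak2) and in replicate 2 less (46% and 35.7%). In 15 genes (22.7%, beside 24% of all) protein-coding transcripts held under 80%, and in 11 (16.7%, beside 18.2%) retained-intron transcripts held at least 10%. Transcript estimates of overlapping isoforms share reads and are less certain than gene totals.

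**Figure D4:**
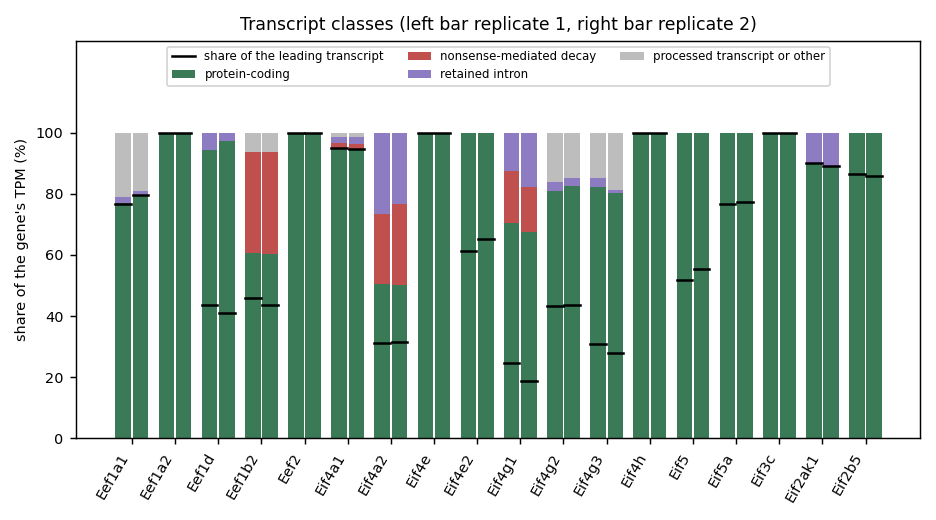
Share of each gene's TPM by transcript class for 18 genes, in percent; the left bar of each pair is replicate 1 and the right bar replicate 2, and the black line marks the leading transcript. Among these 18 genes Eif4a2 shows the lowest protein-coding share (50.3%), and in Eef1a2, Eef2, Eif4e, Eif4h and Eif3c the single transcript holds 100%. Of genes not drawn, Eif1 (41.6%), Eif2ak2 (41.7%), Eif2a (44.7%) and Eif1ax (48.4%) had lower mean protein-coding shares.

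Several of the isoform patterns concern genes named above. For Eef1a1, the coding transcript Eef1a1-201 held 76.7% in replicate 1 and 79.5% in replicate 2, and a short processed transcript, Eef1a1-204, 21.2% and 19%. For Eef1b2, a transcript classed for nonsense-mediated decay, Eef1b2-205, held 31.3% and 31.5%, below the coding Eef1b2-209 at 45.8% and 43.6%. Eef1d has a long coding form with an added amino-terminal part, known as a brain-enriched form that acts in the nucleus. That form, Eef1d-204 with 1980 coding bases, held 13.7% in replicate 1 and 13.9% in replicate 2, while the short Eef1d-207 with 771 coding bases held 43.6% and 40.9%.

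Eif4g1 was spread most widely, over 6 transcripts with at least 10% each by mean. Its leading form Eif4g1-201 held 24.6% in replicate 1 and 18.7% in replicate 2, while Eif4g1-202 held 8.38% and 21%, so the libraries disagreed on which was higher. Eif4g2 was split between Eif4g2-213 (43.4% and 43.5%) and Eif4g2-206 (36.3% and 38.1%). Eif4g3 was led by Eif4g3-202 (30.8% and 28%). Among cap-binding genes Eif4e2-204 held 61.4% and 65.1%. Eif4a2 was led by Eif4a2-203 (31.1% and 31.4%), and Eif4a1-213 held 94.8% and 94.5%.

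Eif5 showed forms that differ in total length. Eif5-201 and Eif5-202 each have 1287 coding bases but lengths of 1898 and 3966 bases. The coding sequences of these forms were not compared. Eif5-201 held 51.7% in replicate 1 and 55.5% in replicate 2, and Eif5-202 held 48.3% and 44.5%. Eif5a-210 held 76.8% and 77.3% of Eif5a and has 462 coding bases, as many as the other main forms. Eif2ak1-201 held 90% and 88.9%, and Eif2b5-201 held 86.3% and 85.8%.

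Some of these genes contain small nucleolar RNA genes in the same orientation. Of the 67 genes, 9 (13.4%) did so, beside 276 of 21278 protein-coding genes (1.3%). The hosts were Eef1b2, Eef2, Eif2ak3, Eif3a, Eif4a1, Eif4a2, Eif4g1, Eif4g2 and Eif5. Of 17 hosted small RNAs with a row, 10 had a count in either library, and none exceeded a mean of 16.5 counts, in RNA selected for over 200 bases. Snora28 in Eif5 was the highest with 25.7 TPM in replicate 1 and 25.1 in replicate 2, from 16 and 17 counts.

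Promoters were searched on both strands, from 250 bases before to 50 after the first listed RefSeq start (GRCm38.p6), for 51 of the 67 genes that matched by symbol. The letters CCGGAAGT, a site of ETS-family factors, were in 8 of 51 (15.7%), beside 5.6% of 16228 promoters. The shorter ETS core GGAAGT, contained in it, was in 23 (45.1%, beside 25.6%). CACGTG, the E-box bound by MYC-family factors, was in 10 (19.6%, beside 8.2%). GGGCGG, the GC box, was in 37 (72.5%, beside 48.6%). TATAAA was in 4 (7.84%, beside 12.6%), and CCAAT in 14 (27.5%, beside 38.7%). A match is a description of letters and not of binding.

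To show such matches in place, 60 or 58 bases upstream of the first listed RefSeq start are given 5′ to 3′ on the gene's strand, with the ETS letters or the E-box in capitals. They are Eif3d at chr15:77970862-77970921 (minus strand, 71 bases before the start), Eif3l at chr15:79075161-79075220 (plus strand, 36 bases before), Eef2 at chr10:81176562-81176619 (plus strand, 43 bases before) and Eif4g1 at chr16:20672647-20672704 (plus strand, 54 bases before).
Eif3d: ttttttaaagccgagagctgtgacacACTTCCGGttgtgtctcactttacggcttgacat
Eif3l: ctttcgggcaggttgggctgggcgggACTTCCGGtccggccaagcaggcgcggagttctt
Eef2: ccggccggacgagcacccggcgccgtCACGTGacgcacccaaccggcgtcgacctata
Eif4g1: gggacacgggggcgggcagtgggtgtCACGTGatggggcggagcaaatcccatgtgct
In Eif3d and Eif3l the ETS letters read in reverse orientation. In GENCODE M21, Eif4g1 starts earlier, at chr16:20668313, and Eif3l at chr15:79075179. The Eif4g1 stretch and the ETS letters of Eif3l therefore lie inside the M21 genes. Eif3d had 164 TPM in replicate 1 and 155 in replicate 2, and Eif3l 180.1 and 169.9 TPM.

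Genes that act with these factors were at varied levels. Of 8 poly(A)-binding genes and modulators of the cap complex, all reached 1 TPM in both libraries. Paip2, an inhibitor of poly(A)-binding protein, led with 343 TPM in replicate 1 and 349.6 in replicate 2. Pabpc1, the poly(A)-binding protein, had 199.7 and 207 TPM, and Paip1, its activator, had 149.9 and 169.9 TPM. Larp1, which represses ribosomal protein mRNAs, was the lowest with 13.7 and 11.6 TPM.

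All 7 genes of termination and recycling were at 1 TPM or more. Denr had 112 TPM in replicate 1 and 125 in replicate 2. Its partner Mcts1 had 111 and 113 TPM. Abce1, which splits ribosomes, had 76.8 and 66.9 TPM, and Gspt2, a release factor paralog, was the lowest with 9.16 and 7.87 TPM.

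All 10 genes of mTORC1, S6 kinase and MNK signalling, which acts on the eIF4E-binding repressors and on eIF4E, reached 1 TPM. The activator Rheb had 197 TPM in replicate 1 and 188 in replicate 2. The kinase Rps6kb1 had 52 and 51.8 TPM, and Mknk2, a kinase of eIF4E, had 44.7 and 41.8 TPM. Rptor was the lowest with 8.5 and 7.48 TPM.

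Of 6 measured genes around eIF2 phosphorylation, 5 reached 1 TPM. Atf4, whose mRNA is translated when eIF2 is phosphorylated, had 115 TPM in replicate 1 and 105 in replicate 2. Ppp1r15b, a phosphatase subunit, had 32.5 and 28.7 TPM, and Impact, an inhibitor of GCN2 activation, had 24 and 21.3 TPM. Trib3, a stress target, was the lowest with 0.82 and 0.64 TPM.

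All 7 genes of hypusine and diphthamide modification, which act on eIF5A and eEF2, reached 1 TPM. Dph3 had 78.1 TPM in replicate 1 and 74.8 in replicate 2. The hypusine enzymes Dohh and Dhps had 79.9 and 68.2 TPM, and 67 and 65.4 TPM. Dph1 was the lowest with 13.2 and 11.3 TPM.

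All 7 mitochondrial translation factors reached 1 TPM. Tufm, the mitochondrial relative of eEF1A, had 99.7 TPM in replicate 1 and 90.5 in replicate 2. Tsfm, its exchange factor, had 65.8 and 61.3 TPM. Mtif2, the relative of eIF5B, had 52 and 51.2 TPM, above Eif5b itself, and Mtrf1l, a release factor, was the lowest of the 7 with 9.09 and 10.1 TPM.

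Between the libraries, no translation factor differed by 1.5-fold or more in TPM + 1 among 65 with a mean count of at least 10, where 2.06% of 14549 protein-coding genes did. At 1.2-fold, a threshold chosen after seeing the data, 4 of 65 (6.15%) differed, beside 18.1% of all genes. These were Eif4ebp3, Eef2kmt, Eef2k and Eif5a2, each higher in replicate 1, the direction of 14.9% of all genes, with log2 ratios of 0.35, 0.34, 0.32 and 0.30. All 4 lay under 20 TPM by mean. With counts scaled by TMM, 3 of 65 (4.62%) differed by 1.2-fold, beside 21.3% of all genes, and only Eif4ebp3 was among both sets, with a log2 ratio of 0.30. The others were Eif2ak2 at 0.28 and Eif1b at -0.29, which was higher in replicate 2. The median absolute log2 ratio was 0.10 for translation factors and 0.13 for all genes.

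The direction of small differences rested on scaling. In TPM, 49 of 65 translation factors (75.4%) were higher in replicate 1, beside 73.8% of all genes. With counts scaled by TMM, which sets most genes equal between libraries, 24 of 65 (36.9%) were, beside 49.5%. The median log2 ratio of replicate 1 over replicate 2 was 0.09 for translation factors and 0.10 for all genes in TPM, and -0.03 for translation factors by TMM, where all genes had -0.0019.

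**Figure D5:**
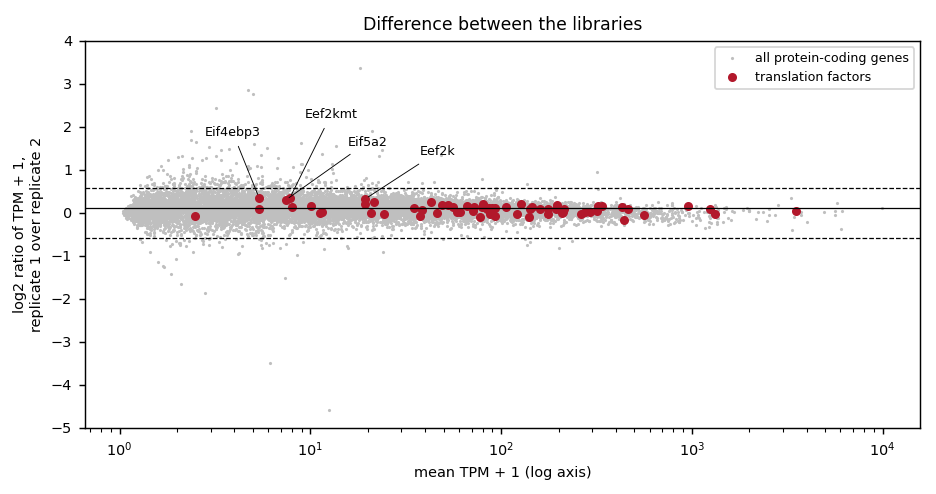
Log2 ratio of TPM + 1, replicate 1 over replicate 2, against mean TPM + 1 on a log axis; red points are 65 translation factors, grey points all protein-coding genes with a mean count of at least 10, the solid line their median (0.10) and dashed lines 1.5-fold. No red point lies beyond a dashed line, and the 4 named genes differ by at least 1.2-fold in TPM + 1.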

How the data were processed

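Total RNA of over 200 bases was extracted with a mirVana kit from forebrain, with 10 ng of input and spike-in RNA per library, per the labels' protocols, which also link a low-input cDNA kit manual. Gene and transcript tables of each library have RSEM-style columns per the file headers and were made by the authors on mm10 with GENCODE M4 per the metadata deposited beside them. Aligner, quantification version, read length and strand setting: not given in the sources used here. Expected counts deposited by the authors are estimated and divide reads that features share. The deposited TPM values are the authors' abundances per length, with a second column for the posterior mean. The deposited FPKM values and the authors' deposited percent column of transcript shares were not used, and shares were recomputed from TPM.

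Symbols, classes and positions came from GENCODE M21 on GRCm38, matched by gene identifier. Levels are given per library with the mean and SD, and list levels are medians over genes. Ratios on the log2 scale use TPM + 1, and other ratios use TPM as deposited, with no pseudocount. Comparisons between libraries kept genes with a mean estimated count of at least 10. Counts were rounded and scaled with edgeR 4.0.16 (TMM) and DESeq2 1.42.0 (size factors, both equal to 1 here) in R 4.3.3, as alternatives only. No test was run, since with 2 values an exact sign test has 0.5 as its smallest p. Depth was 35378462 and 36793284 estimated counts, and 57 of the 67 genes had a mean of at least 1000. Chi-square per degree of freedom between the libraries was 12.8 over 19076 degrees of freedom, above sampling noise, as separate preparations of 1 RNA could also give; they were counted as 2 samples because the labels number them as biological replicates. Windows of 100 bases were compared over M21 transcripts with a row in the deposited tables, so other transcripts were not searched. The length of 100 bases is the shortest that the deposited effective length (length minus 99) counts. Coding sequences were aligned with Biopython 1.88; other steps used Python 3.11.15, pandas 2.3.3 and numpy 2.4.6. The ratio step was tested on simulated counts.

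The genes, lists, pairs and thresholds were chosen with earlier results of these data known. By a stated rule, values in each library are given for the 4 highest and the lowest gene of each role list (all genes of lists of 5 or fewer), both genes of each pair, each isoform gene, and the 3 highest and the lowest gene of each related list. Of pseudogenes named after a translation factor, the highest in TPM was Eif4a-ps4, followed by Eif5al3-ps (3.87 and 2.07 TPM), Eif1-ps1 (2.33 and 3.4 TPM), Eif3s6-ps1 (1.58 and 0.64 TPM) and Eif3s6-ps2 (0.75 and 0 TPM). The promoters of Eif3d, Eif3l, Eef2 and Eif4g1 were singled out after the matches were seen.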

Additional observations from a re-analysis of the deposited data

How the results depend on the processing

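Of 135 values recomputed under alternatives, 107 moved by no more than the spread between the libraries (counts by no more than 1.5 times), 25 moved further and 3 changed sign. Many of the 107 were fixed in advance and say nothing about stability. For pair ratios, transcript shares and the elongation-minus-initiation difference, leaving out a library stays within that spread by construction. The share of a gene with a single transcript cannot move at all. Those that changed sign were the log2 ratio of Eif3j1 over Eif3j2, at 0.067 in counts (a unit added for the other pairs after seeing the data), and the median log2 ratio of replicate 1 over replicate 2, at -0.034 with TMM and -0.036 with DESeq2 size factors; TPM and counts are scaled to different totals. The median level was 72.6 TPM as a mean of log2 values. At 200 TPM the count of high genes was 17. The elongation-minus-initiation difference was 1.15 with means, 1.99 with a count minimum of 10 and 1.72 with protein-coding transcripts only. The log2 ratio of Eef1a1 over Eef1a2 was 11.10 with a pseudocount of 0.1, 10.69 in counts and 10.10 with protein-coding transcripts only. At 1.2-fold, 4 genes differed between the libraries. Apart from settings that define a different quantity, the cause of these moves was not tested. Of 49 alternative values of the 8 paralog pairs, 48 kept their direction, the exception being Eif3j1 over Eif3j2 in counts.

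Leaving out a library gave a median level of 80.6 to 85.9 TPM, 65 genes at 1 TPM and 28 at 100 TPM each time, an elongation-minus-initiation difference of 2.00 to 2.05 and an Eef1a1 over Eef1a2 log2 ratio of 10.40 to 10.51. No paired analysis was possible because there is 1 group. Depth limits Eef1a2, Eif4ebp3, Eef1akmt3 and Eif4e1b, which rest on at most 75 counts in a library.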
